A study of Mus musculus with 8 samples.

Results

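Macrophages are the main immune cells that live inside the islet of Langerhans, and they were measured here through 34 genes that mark macrophages or leukocytes, of the 26894 gene symbols on the array. The genes were taken by symbol from the deposited expression table, which held 61 probes for them among 56605, and each gene was represented by the probe with the highest mean signal over the 8 arrays. The islets came from adult male βUCP2Tg mice, in which an insulin promoter drives mouse *Ucp2* in β-cells, and from wild-type (WT) littermates on a C57BL6/J background. Both groups had handpicked islets that were kept for 8 h in RPMI 1640 with 200 mg/dL glucose and 10% serum, and each group had 4 samples, each on 1 array. The paper's general islet methods also describe an overnight culture at lower glucose after handpicking, so 8 h may not be the whole time in culture. By design the transgene is driven in β-cells and not in macrophages. The study asked which islet genes change when UCP2, a protein of the inner mitochondrial membrane, is raised in β-cells. The sources used here do not say whether a sample held islets of 1 mouse or of several, so p-values measure the spread between these samples only.

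Islet macrophages sit next to capillaries and sample β-cell granules and blood. They carry the receptor for colony-stimulating factor 1, present antigen on MHC class II, make the complement protein C1q, bind antibody through Fc receptors, and take up and digest particles in lysosomes. Several of their receptors have no signalling tail of their own and pair with the adaptors TYROBP or FCER1G, whose ITAM motif recruits the kinase SYK. In whole islets, fewer macrophages and less RNA per macrophage cannot be told apart.

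All values below are normalized log2 signals, that is, the log2 of the scanner's processed signal minus the 75th percentile of that array. A gene was tested if the scanner software marked its probe as well above background on 4 or more of the 8 arrays, and it was called if limma gave an adjusted p under 0.05 and a change over 1.5-fold. The targeted gene matched the labels: *Ucp2* read 6.99 to 7.71 on the βUCP2Tg arrays and 0.92 to 1.46 on the WT arrays. Between 33191 and 36320 probes were well above background on each array. All arrays were on 1 slide with each genotype in its own row, so slide position and genotype cannot be told apart. The scanner software grades 10 quality metrics per array, and WT replicates 1 and 3 each failed 2 of them while every other array passed all.

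Of the 34 genes, 32 were tested and 30 of these were above background on every array. The macrophage markers *Adgre1* (F4/80), *Csf1r*, *Cd68*, *C1qa*, *C1qb*, *C1qc* and *Lyz2* were among those 30. Of the other genes, *Trem2* was above background on 3 βUCP2Tg and 4 WT arrays, and *Cx3cr1* on 2 of each. *Mrc1*, the mannose receptor, was above background on 2 βUCP2Tg and 1 WT arrays and was not tested. *Spi1*, which encodes the myeloid transcription factor PU.1, was above background on 2 βUCP2Tg and no WT arrays and was not tested.

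Among the 32 tested genes, *Cd14* fell in βUCP2Tg islets and no gene rose. Over all 35363 tested probes, 0.204% were called lower and 0.206% higher. At an unadjusted p under 0.05, 3 of the genes were higher (*C1qa*, *Fcgr1* and *Cd52*) and 7 were lower (*Cd14*, *Fcgr3*, *Cd68*, *Laptm5*, *Trem2*, *Itgam* and *H2-Eb1*), beside 9.99% of all probes higher and 15.2% lower. The βUCP2Tg and WT arrays did not overlap for *C1qa*, which was higher, or for *Cd14* and *Fcgr3*, which were lower, beside 5.25% of all probes not overlapping and higher and 7.17% not overlapping and lower. The median log2 fold change was -0.24 over the 32 genes, 11 of them positive and 21 negative. It was -0.02 over all probes and 0.03 over 1 probe per gene. Between arrays of a genotype, the median deviation of the 32 genes had a pooled SD of 0.3. Leaving out 1 array moved the median fold change between -0.35 and -0.09. The fold changes ran from -2.10 for *Cd14* to 0.73 for *Fcgr1*, as the plot of fold changes shows.

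**Figure D1:**
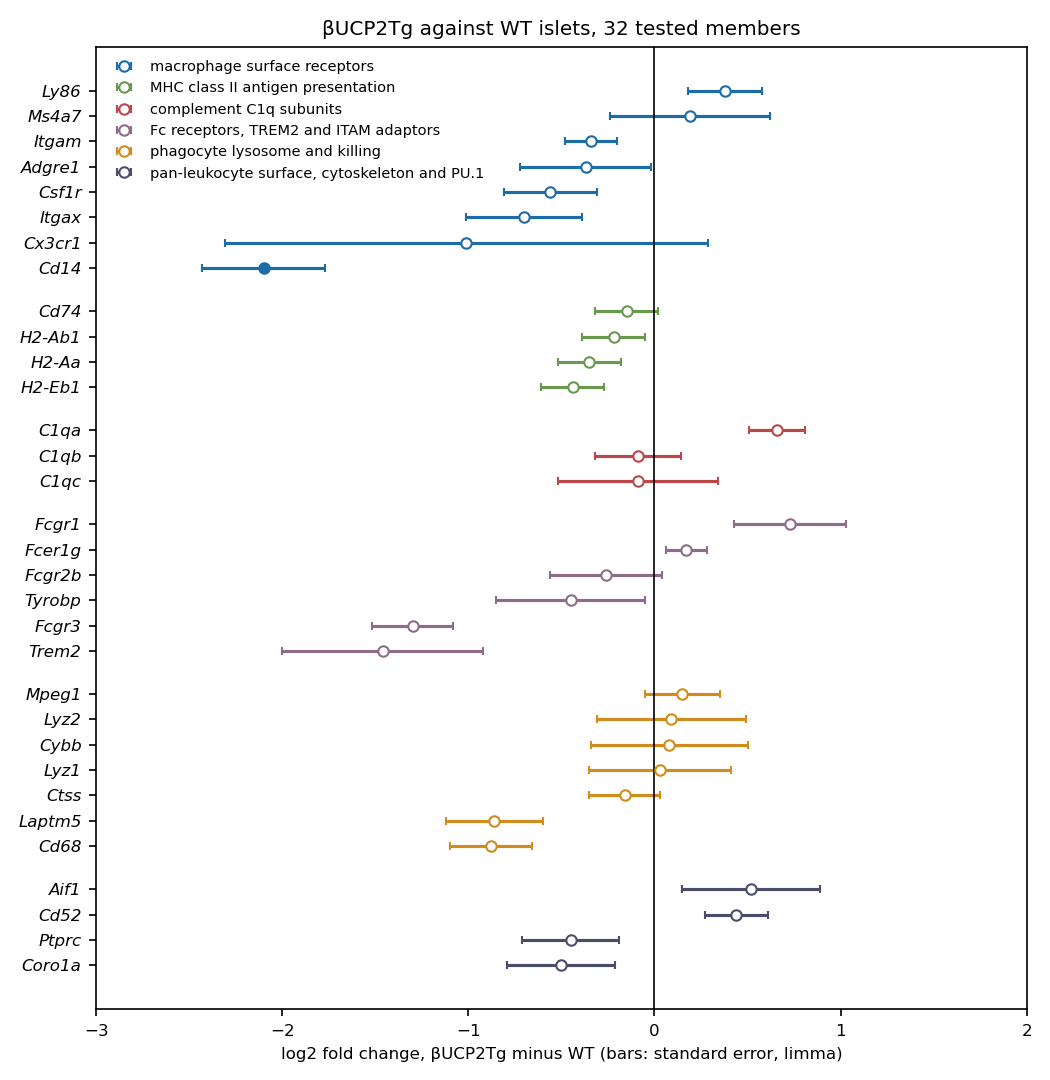
Log2 fold change (βUCP2Tg minus WT, horizontal axis) of the 32 tested macrophage and leukocyte genes, grouped by role. Points are limma estimates from 4 arrays per genotype, bars are their standard errors, and the filled point is *Cd14*, the 1 gene that was called, at -2.10; the other 31 points are open.

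*Cd14* encodes the co-receptor that passes bacterial lipopolysaccharide to TLR4. Its signal was -0.36, -1.20, -0.71 and 0.03 on βUCP2Tg replicates 1 to 4 and 0.72, 1.80, 1.89 and 1.77 on WT replicates 1 to 4. All βUCP2Tg arrays lay below all WT arrays, and WT replicate 1 was well below the other WT arrays. *Cd14* fell by 2.10 on the log2 scale (SE 0.33, adjusted p = 0.0480), a 4.29-fold difference. The exact two-sided permutation test gave p = 0.0286, the smallest value that 4 against 4 arrays allow. A further *Cd14* probe also separated the genotypes, with a log2 fold change of -1.92 (SE 0.36, adjusted p = 0.0635). The call was lost without any one of 6 arrays, whereas it held without βUCP2Tg replicate 4 (-2.30, adjusted p = 0.0237) and without WT replicate 1 (-2.37, adjusted p = 0.0114). It was also lost with quantile normalization (adjusted p = 0.0503), with no filter on dim probes (adjusted p = 0.0937), with the methods' test after adjustment (adjusted p = 0.0913) and with the replicate number as a block (adjusted p = 0.137). The direction was the same in all these cases, between -2.37 and -1.89. Without both WT arrays that failed quality metrics, *Cd14* gave -2.34 (adjusted p = 0.0463).

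The surface receptors had the most negative median of the 6 classes, -0.47 over the 8 tested, with 6 negative and 2 positive, and none besides *Cd14* was called. *Adgre1*, the classical mouse macrophage antigen, had a log2 fold change of -0.37 (SE 0.35), with a range of -0.61 to -0.20 over the alternatives. *Csf1r*, the receptor that macrophages need to survive, gave -0.56 (SE 0.25). The fractalkine receptor *Cx3cr1* gave -1.01 with an SE of 1.30 and ran from -1.86 to -0.29 over the alternatives. It was above background on only 2 arrays of each genotype, so its value rests partly on background signal, and it counts in the class median. The CD11c integrin chain *Itgax* gave -0.70 (SE 0.31). *Ly86*, which encodes the MD-1 partner of the receptor RP105, gave 0.38 (SE 0.20), and *Ms4a7*, a tetraspanning membrane protein, gave 0.19 (SE 0.43). The genotypes overlapped for each of these genes. *Cd14* and *Adgre1* came from the same arrays, and the difference between them within an array was 1.69, 1.58, 0.91 and 2.86 on the βUCP2Tg arrays and 2.24, 4.23, 4.28 and 3.21 on the WT arrays. That difference was lower by 1.73 in βUCP2Tg islets but overlapped between genotypes (exact permutation p = 0.0571, adjusted p = 0.0952 over 5 such pairs). All 5 pairs were chosen after values were seen. Their p-values are therefore descriptions, and adjustment over 5 pairs does not correct for that choice.

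**Figure D2:**
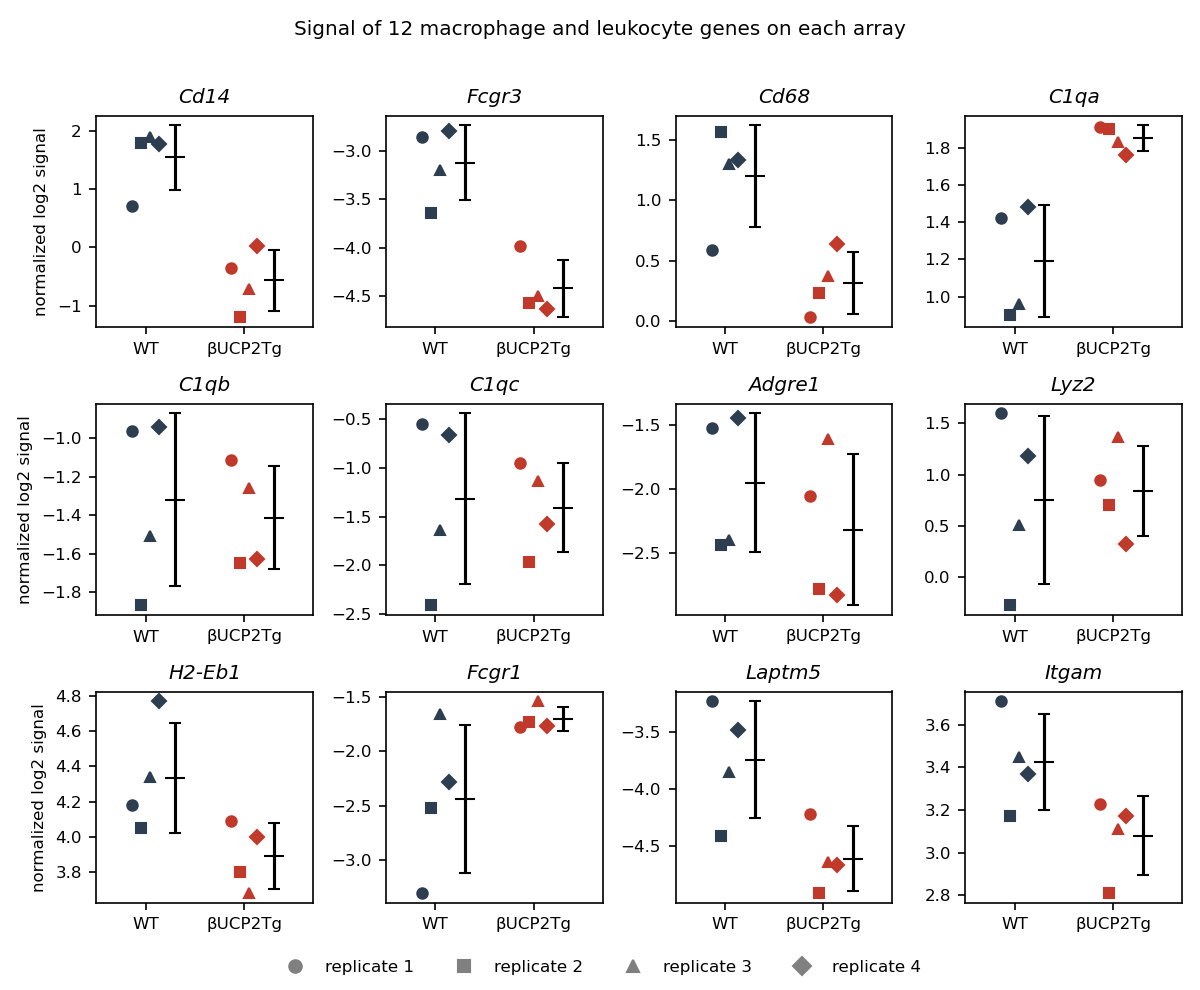
Normalized log2 signal (vertical axis) of 12 macrophage and leukocyte genes in WT (blue) and βUCP2Tg (red) islets, 1 symbol per replicate array, with the mean and SD (n = 4) beside them. The vertical scale differs between panels. The genotypes do not overlap for *Cd14*, *Fcgr3* and *C1qa*.

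The highest mean signal among the surface receptors belonged to the probe chosen for *Itgam*, the CD11b integrin chain. It read 3.23, 2.81, 3.11 and 3.17 on the βUCP2Tg arrays and 3.71, 3.17, 3.45 and 3.37 on the WT arrays. The βUCP2Tg arrays were mostly the lower ones, but replicate 1 was inside the WT range and replicate 4 level with the lowest WT array. Its log2 fold change was -0.34 (SE 0.14, adjusted p = 0.185). A further *Itgam* probe was far dimmer, between -1.94 and -1.66 in βUCP2Tg and between -2.16 and -1.77 in WT, with a fold change of 0.11. The bright *Itgam* probe opens with a CA repeat of 20 bases, and the chosen probe of *Ptprc* (CD45) holds an AT repeat of 8 bases. These were the only probes among the 61 with a 2-base repeat of 8 bases or more. They are shown because the signal of the brightest probe stands for each gene here, and the repeat is in capitals. What part the repeat plays in the signal was not tested. The lines give the first 30 bases of the bright *Itgam* probe, the whole dim *Itgam* probe and the last 30 bases of the bright *Ptprc* probe, 5′ to 3′ as deposited.
Itgam, bright probe: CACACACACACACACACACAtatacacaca
Itgam, dim probe: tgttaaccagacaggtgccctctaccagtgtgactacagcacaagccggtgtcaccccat
Ptprc, bright probe: cagatagattttATATATATgtgtatatat

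The 4 genes of MHC class II presentation all had negative fold changes and none passed the test. The invariant chain *Cd74*, which guards the groove of class II molecules until loading, gave -0.15 (SE 0.17). The α and β chains of the A molecule, *H2-Aa* and *H2-Ab1*, gave -0.35 and -0.22 (SE 0.17 each). Over the alternatives *H2-Aa* ran from -0.46 to -0.21 and *H2-Ab1* from -0.33 to -0.08. The E β chain *H2-Eb1* was the brightest of the class, at 4.09, 3.80, 3.68 and 4.0 on the βUCP2Tg arrays and 4.18, 4.05, 4.34 and 4.77 on the WT arrays. The genotypes overlapped only through βUCP2Tg replicate 1 and WT replicate 2, and the fold change was -0.44 (SE 0.17, adjusted p = 0.162). The 4 probes of *H2-Ab1* ran from -0.32 to -0.22. Of 14 further genes of class II loading, regulation and co-stimulation, 12 were tested and none was called, with a median of 0.01. The genotypes did not overlap for 3 of these 12, beside 12.4% of all probes, namely the peptide loader *H2-DMa* (0.50, adjusted p = 0.0932), the class II promoter factor *Rfxank* (0.29, adjusted p = 0.179) and the lysosomal protease *Lgmn* (-0.21, adjusted p = 0.200).

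C1q is built from equal numbers of A, B and C chains, encoded by neighbouring genes. The A chain gene *C1qa* read 1.91, 1.90, 1.83 and 1.76 on the βUCP2Tg arrays and 1.42, 0.90, 0.96 and 1.48 on the WT arrays. All βUCP2Tg arrays were above all WT arrays, and they lay close together. The fold change was 0.66 (SE 0.15), which did not pass the test (adjusted p = 0.0823, exact permutation p = 0.0286). The B chain gene *C1qb* gave -0.09 (SE 0.23) and the C chain gene *C1qc* gave -0.09 (SE 0.43), with full overlap of the genotypes. Within an array, *C1qa* stood above *C1qb* by 3.02, 3.54, 3.09 and 3.40 in βUCP2Tg islets and by 2.38, 2.77, 2.47 and 2.43 in WT islets. These groups did not overlap, and the within-array difference was larger by 0.75 in βUCP2Tg islets (exact permutation p = 0.0286, adjusted p = 0.0714 over 5 pairs). For *C1qa* against *C1qc* it was also 0.75, with overlapping groups (exact permutation p = 0.114, adjusted p = 0.143). Both pairs were chosen after the values of *C1qa* were seen, so these p-values add no support to its difference. The *C1qa* and *C1qb* probes are shown because the comparison rests on 1 probe for each of these chains, and no base is marked.
C1qa: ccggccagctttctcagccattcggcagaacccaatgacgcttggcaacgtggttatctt
C1qb: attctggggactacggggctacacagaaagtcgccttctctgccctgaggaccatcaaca

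Without WT replicate 1, *C1qa* passed the test at 0.74 (adjusted p = 0.0257), *Fcgr3* at -1.21 (adjusted p = 0.0222) and *Cd68* at -1.09 (adjusted p = 0.0143). Leaving out that array also raised the calls over the whole table, to 5.14% of probes higher and 5.67% lower.

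Of the receptors that bind the constant part of IgG, *Fcgr3* was lower in βUCP2Tg islets without passing the test. *Fcgr3*, an activating receptor of low affinity, read -3.98, -4.57, -4.50 and -4.63 on the βUCP2Tg arrays and -2.86, -3.64, -3.20 and -2.80 on the WT arrays. All βUCP2Tg arrays were below all WT arrays. The log2 fold change was -1.30 (SE 0.22, adjusted p = 0.0517, exact permutation p = 0.0286), a 2.46-fold difference. With normexp background correction it was -0.56 (adjusted p = 0.0306), under the 1.5-fold limit. A second *Fcgr3* probe was above background on 2 βUCP2Tg and 4 WT arrays and so passed the filter only through WT, and no fold change is read from it. It lay between -6.54 and -5.36 on the βUCP2Tg arrays and between -5.24 and -4.80 on the WT arrays. *Fcgr1*, the activating receptor of high affinity, gave 0.73 (SE 0.30, adjusted p = 0.178). Its βUCP2Tg arrays lay between -1.78 and -1.54 and its WT arrays between -3.30 and -1.66, so WT replicate 3 fell inside the βUCP2Tg range. *Fcgr2b*, the inhibitory receptor, gave -0.26 (SE 0.30), with a range of -0.52 to 0.04 over the alternatives. The difference between *Fcgr1* and *Fcgr3* within an array was 2.20, 2.83, 2.96 and 2.85 in βUCP2Tg islets and -0.44, 1.12, 1.54 and 0.52 in WT islets. These groups did not overlap, with the difference larger by 2.03 in βUCP2Tg islets (exact permutation p = 0.0286, adjusted p = 0.0714 over 5 pairs). This pair sets a gene with a positive fold change against one with a negative fold change. It was chosen after values were seen, so the separation follows partly from the choice.

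The adaptors and the lipid receptor that signals through TYROBP did not pass the test. *Fcer1g*, the γ chain that Fc receptors signal through, was the brightest of this class, at 1.27, 1.19, 1.14 and 0.92 on the βUCP2Tg arrays and 0.78, 0.94, 1.12 and 1.01 on the WT arrays. The genotypes overlapped, and the fold change was 0.17 (SE 0.11, adjusted p = 0.377). *Tyrobp* gave -0.45 (SE 0.40) and ran from -0.76 to -0.19 over the alternatives. *Trem2* gave -1.46 (SE 0.54, adjusted p = 0.152), which became -0.58 with normexp background correction. Of 11 genes that act downstream of ITAM motifs, among them *Syk* at -0.08, 10 were tested and none was called, with a median of 0.09.

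The lysosome and killing genes split into a pair with negative values, neither past the test, and 5 near 0. *Cd68*, a lysosomal membrane glycoprotein used as a macrophage marker, lay between 0.03 and 0.64 on the βUCP2Tg arrays and between 0.59 and 1.57 on the WT arrays. The genotypes overlapped only because WT replicate 1 was below βUCP2Tg replicate 4. Its fold change was -0.88 (SE 0.22, adjusted p = 0.0887), and the other *Cd68* probes gave -1.03 and -0.95, all 3 without passing the test. *Laptm5*, a lysosomal membrane protein of blood cells, gave -0.86 (SE 0.26, adjusted p = 0.110). The protease *Ctss*, which trims the invariant chain, was the brightest of the class, at 2.16, 1.90, 2.06 and 1.91 on the βUCP2Tg arrays and 2.46, 1.59, 2.23 and 2.40 on the WT arrays. The WT arrays spread to both sides of the βUCP2Tg arrays, and the fold change was -0.16 (SE 0.19, adjusted p = 0.624). The lysozymes *Lyz1* and *Lyz2* gave 0.03 (SE 0.38) and 0.09 (SE 0.40). The pore-forming *Mpeg1* gave 0.15 (SE 0.20), and the catalytic NADPH oxidase subunit *Cybb* gave 0.08 (SE 0.42). Within an array, *Cd68* relative to *Lyz2* was lower by 0.97 in βUCP2Tg islets, with overlapping groups (exact permutation p = 0.286, adjusted p = 0.286 over 5 pairs). All 5 partner genes of the oxidase were tested and none was called, with a median of -0.09.

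The genes shared by all or most leukocytes had mixed signs. The phosphatase *Ptprc*, which is the CD45 antigen, read 1.29, 0.98, 0.95 and 1.13 on the βUCP2Tg arrays and 1.86, 1.86, 1.74 and 0.69 on the WT arrays. WT replicate 4 was the lowest of all arrays while the other WT arrays were the highest, and the fold change was -0.45 (SE 0.26, adjusted p = 0.310). The actin regulator *Coro1a* gave -0.50 (SE 0.29) and ran from -0.65 to -0.27 over the alternatives. *Cd52*, a small surface glycoprotein, gave 0.44 (SE 0.17, adjusted p = 0.155), and *Aif1*, the calcium-binding protein IBA1, gave 0.52 (SE 0.37).

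Different probes of a gene did not always give the same sign, as the plot of fold changes by probe shows. For 11 of the genes more than 1 probe was tested, 26 probes in all. *Cd14*, *Cd68*, *H2-Ab1*, *Ms4a7*, *Lyz2* and *Cybb* kept 1 sign over all their tested probes. *Csf1r* gave -0.56 with the chosen probe and 0.03 with the other. *Ptprc* gave -0.45 with the chosen probe and -0.19 and 0.08 with the others. *Itgam* differed in sign as given above. None of the probes of *Csf1r*, *Ptprc* and *Itgam* was called. The second probes of *Fcgr3* and *Mpeg1* were each above background on 2 βUCP2Tg and 4 WT arrays, and their signs are not read.

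**Figure D3:**
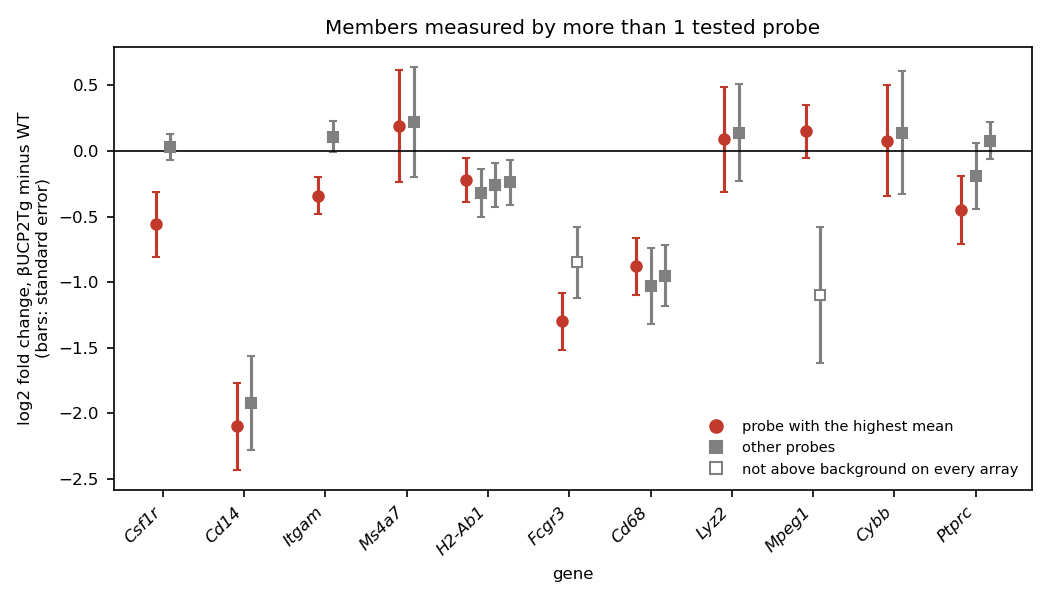
Log2 fold change (βUCP2Tg minus WT, vertical axis) with its standard error (bars) for the 26 tested probes of 11 genes. Red circles are the brightest probe of each gene and grey squares the others, and open squares mark the *Fcgr3* and *Mpeg1* probes that were above background on 6 of the 8 arrays. For *Csf1r*, *Itgam* and *Ptprc* the filled symbols of 1 gene lie on both sides of 0.

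Within each genotype, many of the genes ranked the arrays in the same way. In 15 of the 32 genes (46.9%), βUCP2Tg replicates 1 and 3 were the highest of their group and WT replicates 1 and 4 the highest of theirs, an order that 6.13% of all tested probes had. The order was chosen from these same genes after values were seen, so a higher share among them follows partly from that choice. The 15 genes were *Adgre1*, *Csf1r*, *Cx3cr1*, *Ms4a7*, *C1qb*, *C1qc*, *Fcgr3*, *Tyrobp*, *Ctss*, *Lyz1*, *Lyz2*, *Laptm5*, *Mpeg1*, *Coro1a* and *Aif1*. WT replicates 1 and 4 were the highest 2 WT arrays for 18 of the 32 genes (56.2%) and for 31.2% of all tested probes. They were the most frequent WT pair in both. WT replicate 1 was the highest of the 8 arrays for 14 of the 32 genes and WT replicate 2 the lowest for 12. The shares of all probes with these extremes were not counted. *Lyz2*, for example, ran from -0.28 on WT replicate 2 to 1.60 on WT replicate 1, a spread within 1 genotype that was larger than its difference of 0.09 between genotypes. *Cd14*, *Cd68* and *Cybb* did not have this order, and WT replicate 1 was their lowest WT array. No gene of the MHC class II class had it either.

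**Figure D4:**
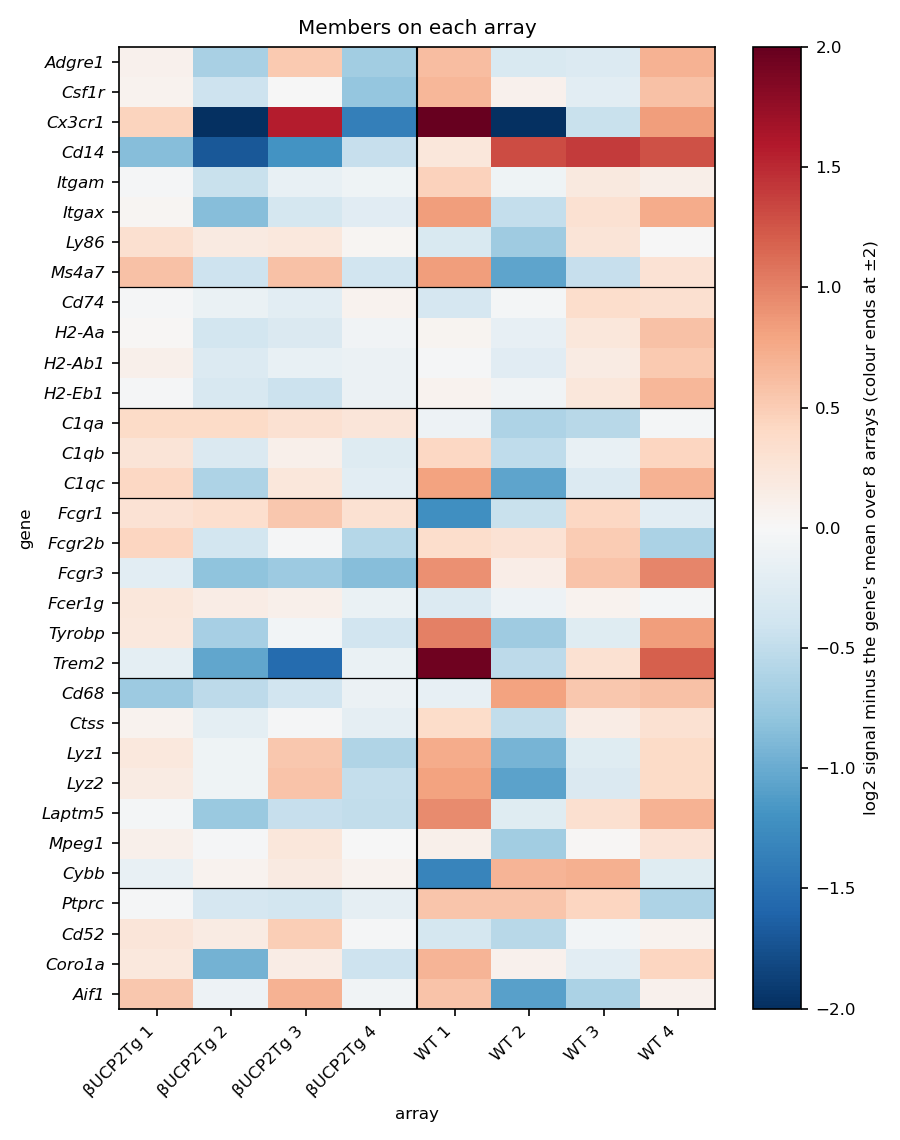
Normalized log2 signal of the 32 tested genes on each array (columns) minus the mean of that gene over the 8 arrays, as colour from blue (lower) to red (higher), with lines between the classes. The colour scale ends at ±2. Columns of βUCP2Tg replicates 1 and 3 and WT replicates 1 and 4 are redder than the rest of their genotype for 15 genes, among them *C1qb*, *C1qc*, *Lyz1*, *Lyz2* and 4 of the 8 surface receptors, and *Cd14* is red on all WT arrays.

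Markers of other pancreatic cells also differed between arrays. The 12 acinar cell genes, which encode digestive enzymes, all had negative fold changes (-2.14 to -0.26) and none was called. Their mean deviation over the 12 genes was -2.13, -0.77, -1.80 and 1.61 on βUCP2Tg replicates 1 to 4 and 0.81, 1.85, 2.19 and -1.76 on WT replicates 1 to 4. Within each genotype, the arrays with the least acinar signal were thus those where the 15 genes were highest. Their summed signal on the linear scale ran from 11.8 to 179 times the 75th percentile in βUCP2Tg islets and from 17.2 to 320 times in WT islets. The part of acinar RNA in the order of the arrays was not tested. *Cd14* was highest on βUCP2Tg replicate 4 within that genotype and on WT replicates 2 and 3 within the other, the arrays with the most acinar signal, while WT replicate 4 with little acinar signal read 1.77. The part of acinar RNA in the *Cd14* difference was not tested. The 12 endothelial markers had a median of 0.28, and 5 were higher and 1 lower at an unadjusted p under 0.05, beside 9.99% and 15.2% of all probes, with none called. Of 47 tested markers of acinar, duct, endothelial, stromal and β-cells, 3 were higher and 2 lower without overlap, beside 5.25% and 7.17% of all probes. They were the endothelial genes *Robo4* (0.32, adjusted p = 0.139) and *Tek* (0.65, adjusted p = 0.179), the stromal receptor *Pdgfrb* (0.40, adjusted p = 0.10), the duct keratin *Krt19* (-1.63, adjusted p = 0.0686) and the β-cell transcription factor *Mafa* (-0.34, adjusted p = 0.103).

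The promoters of *C1qb*, *C1qc*, *Lyz1* and *Lyz2* are shown as 2 pairs of neighbouring genes that share the order of the arrays. Each holds the letters AGGAAGT, a core bound by PU.1 and related ETS factors, on the strand opposite to the gene, as does *Ctss*, which also has that order and is not shown. The motif was searched on both strands (AGGAAGT or ACTTCCT) in windows of 300 bases around the transcription start from RefSeq (GRCm38.p6). It was present for 8 of the 25 genes that had a window (32%), namely *C1qb*, *C1qc*, *Ctss*, *Fcgr1*, *Lyz1*, *Lyz2*, *Mrc1* and *Ptprc*, and for 2886 of 27025 genes in the table (10.7%). Of the 15 genes with the order of the arrays, 12 had a window and 5 of these the motif. Of the 17 tested genes without the order, 12 had a window and 2 of these, *Fcgr1* and *Ptprc*, the motif. A match is a description of letters and does not show binding. The motif is in capitals in the 100 bases shown for each gene, all on the minus strand: *C1qb* at chr4:136886201-136886300, *C1qc* at chr4:136893050-136893149, *Lyz2* at chr10:117282313-117282412 and *Lyz1* at chr10:117292909-117293008. The *Lyz1* and *Lyz2* windows matched at 201 of 300 positions without gaps, and these genes are close copies, so their probes may share RNA.
C1qb: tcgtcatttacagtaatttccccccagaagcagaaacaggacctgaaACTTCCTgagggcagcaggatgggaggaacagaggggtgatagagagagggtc
C1qc: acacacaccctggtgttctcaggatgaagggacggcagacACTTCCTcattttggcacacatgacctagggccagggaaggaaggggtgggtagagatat
Lyz2: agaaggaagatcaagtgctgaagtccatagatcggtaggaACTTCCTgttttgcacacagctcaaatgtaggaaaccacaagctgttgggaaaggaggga
Lyz1: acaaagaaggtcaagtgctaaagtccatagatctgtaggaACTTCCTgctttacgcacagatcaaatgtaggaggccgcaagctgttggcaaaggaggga

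Genes that work with the macrophage genes were followed through 70 partners, of which 60 were tested and none was called, with a median of 0.13. At an unadjusted p under 0.05, 6 of the 60 were higher and 4 lower, beside 9.99% and 15.2% of all probes. Of 9 further complement components and receptors, 8 were tested, with a median of 0.18. Of 11 macrophage growth factors and transcription factors, 10 were tested, with a median of -0.08, and *Cebpb*, a transcription factor of myeloid cells, was lower without overlap (-0.47, SE 0.15, adjusted p = 0.121). Of 20 other macrophage surface genes, 15 were tested, with a median of -0.03. *Clec7a*, the β-glucan receptor Dectin-1, was the 1 gene of these 15 whose genotypes did not overlap, beside 12.4% of all probes. It lay between -5.13 and -3.37 on the βUCP2Tg arrays and between -3.37 and -2.07 on the WT arrays, touching once rounded, with a fold change of -1.58 (SE 0.41, adjusted p = 0.0912). The scavenger receptor genes *Cd163* and *Msr1* and the phosphatidylserine receptor *Timd4* were above background on no array.

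Markers of other leukocytes were also measured in these islets. Of 60 such markers, 34 were tested, 28 were above background on every array and 18 on no array. Of 13 T cell markers, 7 were above background on every array, among them the receptor chains *Cd3e* and *Cd247* and the co-receptor *Cd4*, and 4 on no array, among them *Cd3g*, *Cd5* and *Cd8a*. *Cd3e* averaged 1.73 ± 0.29 on the βUCP2Tg and 1.49 ± 0.34 on the WT arrays (SD, n = 4). Of 8 NK cell markers, 1 was above background on every array (*Prf1*) and 3 on no array, among them *Ncr1* and *Eomes*. Of 7 mast cell markers, 3 were above background on every array (*Hdc*, *Kit* and *Tpsb2*) and 4 on no array, among them *Cpa3* and *Cma1*. Of 7 monocyte markers, *Ccr2* was above background on no array, and the 6 others were tested with positive fold changes (0.06 to 0.92, median 0.50). None of these 6 was called. *Ly6c1* (0.92, adjusted p = 0.126) and *Ly6c2* (0.87, adjusted p = 0.121) had an unadjusted p under 0.05, beside 9.99% of all probes higher. Their 2 probes read nearly alike on every array, so they may not be separate readings. The 4 tested B cell markers were all negative (median -0.46) and the 3 tested NK cell markers all positive (median 0.87), with none called. *Zap70*, a kinase of the T cell receptor, was the 1 marker called. It read -4.25, -4.44, -3.88 and -3.84 on the βUCP2Tg arrays and -3.17, -2.96, -3.21 and -3.02 on the WT arrays, so all βUCP2Tg arrays were lower. *Zap70* fell by 1.01 on the log2 scale (SE 0.15, adjusted p = 0.0456). Over 23 alternatives its fold change ran from -1.11 to -0.55, and 11 of them ended the call, among them 6 of the 8 single arrays left out, the replicate block (adjusted p = 0.137) and normexp background correction, where the change of -0.55 was under 1.5-fold. Over the 8 T cell markers tested the median was -0.06. In all, the groups did not overlap for 4 of the 34 tested markers, beside 12.4% of all probes. Besides *Zap70* these were the B cell marker *Ms4a1* (-0.60, adjusted p = 0.115), the NK cell marker *Prf1* (1.08, adjusted p = 0.105) and the neutrophil marker *Ly6g* (1.17, adjusted p = 0.115), none of which passed the test. Of 10 neutrophil markers, 2 were above background on no array. The 5 that were tested had 3 positive and 2 negative fold changes, with a median of 0.11.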

How the data were processed

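Cy3-labelled RNA of 4 βUCP2Tg and 4 WT islet samples was hybridised to 8 one-colour Agilent arrays. The deposited scanner files hold an intensity per spot, background-subtracted and spatially detrended by Agilent Feature Extraction (version 10.7.3.1 per the file headers, 9.1 in the submitters' processing notes). The deposited table holds the authors' normalized log2 signal from GeneSpring. Its columns of the authors' own comparison, a p-value, a fold change and a log2 fold change, were not used. Here, control and outlier spots were left out, log2 intensities were scaled to the 75th percentile of each array, and spots of a probe were averaged. A probe counted as above background on an array where at least 50% of its spots did, and 35363 probes above background on at least 4 arrays were tested in limma 3.58.1 (R 4.3.3), βUCP2Tg against WT without covariates, with Benjamini-Hochberg adjustment over all of them. The script was tested on simulated data. Single genes and within-array differences were also compared by two-sided exact permutation. The number of arrays limits the precision. The members and gene lists were chosen with earlier results of these data known, and the 5 within-array pairs, the order of arrays and the motif were chosen after values were seen. All members are named. Per-array values are given where a gene was called, did not overlap, stood apart on 1 array, or was the brightest of its class, and further genes are named where they illustrate a count. Partners and other markers are named where called or not overlapping, and *Syk*, *Ly6c1*, *Ly6c2* and those named as above background on every or no array were added after values were seen. Alternatives covered scaling, background correction, filters, probes, tests, a replicate block and left-out arrays. Sequences are those of the deposited table and of RefSeq.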

Additional observations from a re-analysis of the deposited data

Results flagged for a closer look

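Of the 68 groups of 4 arrays examined for the 34 genes, 2 held an array that stood apart from the rest, and chance alone marks about 1 in 20 groups. For *Cd14* in WT islets, replicate 1 (0.72) was separated from the nearest array by 0.898 of the whole range of its group. For *Ptprc* in WT islets, replicate 4 (0.69) was separated by 0.897 of the range. Their part in the fold changes of these genes is given by the values without those arrays: *Cd14* gave -2.37 without WT replicate 1, and *Ptprc* gave -0.73 without WT replicate 4, which did not pass the test (adjusted p = 0.0833).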

How the results depend on the processing

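The median over the tested members stayed negative under every alternative, from -0.35 without WT replicate 2 to -0.09 without WT replicate 4. *Cd14* was lower under all alternatives (-2.37 to -1.84), but the call was lost with quantile normalization (-2.08, adjusted p = 0.0503), no filter on dim probes (-2.10, adjusted p = 0.0937), the methods' t-test after adjustment (-2.10, adjusted p = 0.0913) and the replicate block (-2.10, adjusted p = 0.137). Members called lower numbered 0 under these 4, 2 with normexp (*Cd14* and *Cd68*), with all 8 arrays above background and with an intensity trend (*Cd14* and *Fcgr3* in both), and 4 with the methods' t-test unadjusted. Members called higher numbered 1, *C1qa*, with normexp and with the methods' t-test unadjusted. Leaving out 1 array gave 0 to 3 members lower, 0 to 1 higher, and -2.37 to -1.89 for *Cd14*. Over the whole table, calls higher and lower ran from 8 and 0 without any 1 of βUCP2Tg replicates 1 to 3 to 1787 and 1972 without WT replicate 1, beside 73 and 72. They were 231 and 585 with normexp, 18 and 3 with no filter, 99 and 138 with all 8 arrays above background, 150 and 229 with an intensity trend, 17 and 9 with the methods' t-test adjusted and 1003 and 1829 unadjusted. The replicate block gave 13 and 1, and the correlations of same-numbered arrays were 0.44, -0.05, -0.01 and -0.24 for replicates 1 to 4. The labels give only the number, and whether same-numbered arrays shared more than that was not tested. Signs turned for *Lyz1* and *Cybb* with normexp (-0.07 each) and for *Mpeg1* as the mean of its probes, from 0.15 to -0.47, a mean that takes in the probe not above background on 2 βUCP2Tg arrays. With 1 array left out, the ranges that crossed 0 were -0.27 to 0.28 for *Lyz1*, -0.26 to 0.37 for *Lyz2*, -0.28 to 0.03 for *C1qb*, -0.45 to 0.17 for *C1qc*, -0.35 to 0.33 for *Cybb*, -0.13 to 0.50 for *Ms4a7* and -0.05 to 0.27 for *Mpeg1*. In an alternative chosen after seeing the data, without WT replicates 1 and 3, *Cd14* was the 1 call among members, and *C1qc* (0.13), *Fcgr2b* (0.04), *Ctss* (0.01) and *Cybb* (-0.18) changed sign. The cause of these changes was not tested.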
